A study of Mus musculus with 2 samples.

Results

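Later intron peaks are the open chromatin sites of aged mouse thymus that lie in the second or a later intron of a protein-coding gene. A DNase-seq peak of one library was taken as a member if it overlapped a peak of the other library by at least 1 bp, if its centre lay over 1 kb from every annotated start site, and if that centre fell in a later intron of a gene's longest protein-coding transcript and in no exon and no first intron. Of 50648 peaks in replicate 1, 49224 were autosomal and 5854 met this rule. In replicate 2, 48581 of 49872 peaks were autosomal and 5814 met it. They were 14.96% and 14.86% of the autosomal peaks found in both libraries. The rule used position and presence in both libraries, and no signal value, sequence or gene function.

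DNase-seq cuts nuclei with the enzyme DNase I and sequences the cut ends, so that cuts pile up where DNA is accessible. The tissue was thymus, the organ in which T cells mature, from female adult B6CASTF1/J mice aged 18 to 20 months. This strain is the F1 hybrid of B6 and CAST mice. There was 1 group of 2 libraries, biological replicates 1 and 2, which cite a single donor record but have a biosample record each. Separate animals are nowhere named, and the difference between the libraries may therefore be technical. No other age, sex, tissue or treatment was compared, and no test between groups was possible.

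Introns are removed from the transcript, but their DNA can hold enhancers, which bind transcription factors and act on a promoter at a distance. They also hold binding sites of CTCF, the protein that anchors chromatin loops and blocks enhancers from promoters. In thymocytes many enhancers are bound by RUNX and ETS proteins, by TCF7 and LEF1, and by the E proteins, which read CAGCTG and related E-boxes. First introns lie next to the promoter, whereas later introns can lie far from any start site.

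The peaks below show the letters on which the results turn: first the strongest pair of sites, then sites in genes of T cells, and last sites with a CTCF motif. Each is the peak of replicate 1 in the GRCm38 (mm10) reference, plus strand, with motif matches on either strand in capitals. The motifs marked are CAGGAAG or CCGGAAG (ETS), TGTGGTT or TGCGGTT (RUNX), CTTTGAA or CTTTGAT (TCF7 and LEF1), GGGCGG (SP and KLF factors), CAGCTG (E proteins) and the 12 bp CTCF motif. The reference letters are those of B6, and CAST alleles may differ.
The strongest member lies at chr2:34905041-34905320, in intron 6 of 14 of Phf19, a partner of the Polycomb repressive complex, and holds 3 GGGCGG and 2 CAGCTG matches.
Phf19: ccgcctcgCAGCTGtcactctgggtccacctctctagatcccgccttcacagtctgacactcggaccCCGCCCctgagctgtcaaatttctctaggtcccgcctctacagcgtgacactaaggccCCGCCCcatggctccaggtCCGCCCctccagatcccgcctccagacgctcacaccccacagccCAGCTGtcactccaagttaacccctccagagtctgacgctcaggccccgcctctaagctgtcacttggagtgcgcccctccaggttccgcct
The member at chr4:143162121-143162360, centred in intron 5 of 9 of Prdm2, a zinc finger gene of the PRDM family, ranked second. Its centre lies 59 bp from an exon, so the printed sequence runs into that exon.
Prdm2: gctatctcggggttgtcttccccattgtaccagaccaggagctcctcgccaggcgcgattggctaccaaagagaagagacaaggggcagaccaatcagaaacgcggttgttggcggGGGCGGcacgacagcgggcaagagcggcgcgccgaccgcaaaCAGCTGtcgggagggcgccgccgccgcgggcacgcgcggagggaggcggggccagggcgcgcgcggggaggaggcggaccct
The member at chr1:138136441-138136740, in intron 2 of 32 of Ptprc, which encodes the leukocyte phosphatase CD45, holds 3 RUNX matches.
Ptprc: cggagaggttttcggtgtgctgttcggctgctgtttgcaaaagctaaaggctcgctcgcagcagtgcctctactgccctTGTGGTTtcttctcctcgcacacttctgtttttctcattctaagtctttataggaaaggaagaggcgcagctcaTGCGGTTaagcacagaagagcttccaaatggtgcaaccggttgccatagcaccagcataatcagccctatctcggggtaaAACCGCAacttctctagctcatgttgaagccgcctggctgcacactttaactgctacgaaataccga
The member at chr16:92801661-92801960, in intron 2 of 7 of Runx1, holds 1 ETS and 1 RUNX match.
Runx1: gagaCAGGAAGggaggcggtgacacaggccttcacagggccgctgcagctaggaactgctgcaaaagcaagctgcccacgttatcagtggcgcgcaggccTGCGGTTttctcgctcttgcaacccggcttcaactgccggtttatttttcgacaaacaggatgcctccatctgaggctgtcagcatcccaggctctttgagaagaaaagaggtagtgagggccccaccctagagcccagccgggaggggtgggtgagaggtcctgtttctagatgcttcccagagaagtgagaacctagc
The member at chr3:131208581-131208820, in intron 11 of 11 of Lef1, holds an ETS and a RUNX match a few bases apart.
Lef1: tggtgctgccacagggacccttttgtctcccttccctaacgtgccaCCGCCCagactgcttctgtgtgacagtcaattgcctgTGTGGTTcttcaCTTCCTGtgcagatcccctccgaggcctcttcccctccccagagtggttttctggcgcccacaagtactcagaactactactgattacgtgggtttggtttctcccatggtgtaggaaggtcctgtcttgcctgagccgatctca
The member at chr4:129556521-129556720, centred in intron 5 of 11 of Lck, the kinase that starts T cell receptor signalling, holds 5 GGGCGG matches and 1 ETS match. Its centre lies 23 bp from an exon, so the printed sequence runs into that exon.
Lck: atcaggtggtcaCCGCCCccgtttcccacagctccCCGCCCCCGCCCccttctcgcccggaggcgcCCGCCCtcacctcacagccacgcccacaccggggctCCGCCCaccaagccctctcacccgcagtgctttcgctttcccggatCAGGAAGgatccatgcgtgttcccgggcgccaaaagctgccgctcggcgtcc
The member at chr6:124879441-124879660, centred in intron 2 of 9 of Cd4, holds 2 CAGCTG matches. At 220 bp it is longer than this intron of 128 bp, so part of the printed sequence is exonic. The matches were not assigned to intron or exon.
Cd4: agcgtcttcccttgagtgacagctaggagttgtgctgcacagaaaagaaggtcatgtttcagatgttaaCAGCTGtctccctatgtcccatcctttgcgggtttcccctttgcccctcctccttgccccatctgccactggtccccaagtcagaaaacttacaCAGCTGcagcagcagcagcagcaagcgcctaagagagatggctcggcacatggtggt
The member at chr6:71332661-71332860, in intron 4 of 5 of Cd8b1, the CD8 beta chain, holds 2 TCF7 and LEF1 matches and 1 ETS match.
Cd8b1: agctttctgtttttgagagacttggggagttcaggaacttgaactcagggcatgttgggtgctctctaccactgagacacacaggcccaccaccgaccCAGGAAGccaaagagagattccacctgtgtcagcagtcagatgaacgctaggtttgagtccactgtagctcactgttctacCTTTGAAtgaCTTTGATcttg
The members at chr2:11288561-11288700 in intron 15 of 17 of Prkcq, a protein kinase C of T cells, at chr1:165858544-165858656 in intron 5 of 8 of Cd247, the zeta chain of the T cell receptor complex, and at chr10:28844241-28844440 in intron 4 of 5 of Themis, a thymocyte selection gene, each hold 1 CTCF match.
Prkcq: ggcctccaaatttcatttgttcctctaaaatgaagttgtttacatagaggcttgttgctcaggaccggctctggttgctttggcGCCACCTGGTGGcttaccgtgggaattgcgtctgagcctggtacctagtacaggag
Cd247: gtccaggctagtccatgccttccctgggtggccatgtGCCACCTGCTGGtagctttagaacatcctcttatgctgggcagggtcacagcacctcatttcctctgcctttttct
Themis: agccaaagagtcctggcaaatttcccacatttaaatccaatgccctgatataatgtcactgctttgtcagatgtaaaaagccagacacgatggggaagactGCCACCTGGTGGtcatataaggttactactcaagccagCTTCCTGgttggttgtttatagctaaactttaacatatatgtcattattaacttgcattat

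Promoter peaks stood in both libraries at Cd3e, Cd3g, Cd3d, Lck, Ptcra, Rag1 and Cd8a, genes of T cells and thymocytes, while Cd4 had one in replicate 2 alone. None was found at the B cell gene Cd79a, the myeloid genes Lyz2 and Csf1r, the thymic epithelial genes Foxn1 and Psmb11 or the hepatocyte genes Alb and Apoa1. Other genes of these cell types did have promoter peaks in both libraries. Among listed genes with later intron sequence these were 7 of 16 for B cells and 3 of 12 for myeloid and dendritic cells. They were 6 of 15 for thymic epithelium and 0 of 14 for hepatocytes, against 51 of 54 for T cells. The files give no read depth, and the deposited signal per peak has no stated scale, so levels are compared within a library, and ratios between libraries are centred on the median of all pairs. In tissue, fewer cells with an open site and less opening per cell cannot be told apart.

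Later intron peaks were mostly modest in signal, with a long upper tail. The median signal was 1.65 in replicate 1 and 1.31 in replicate 2, and the upper end reached 15.5 and 16.6. Promoter peaks had a higher median, 3.26 and 2.83. First intron peaks had a median of 1.64 and 1.49, close to the members in replicate 1 and above them in replicate 2, while peaks between genes had 1.73 and 1.34. The median width was 200 bp in both libraries, and the median GC content was 53.5% and 53.6%. A later intron peak was also called less reproducibly than a promoter peak. Of the later intron peaks of a library 71.7% and 75.7% overlapped a peak of the other, against 87.1% and 87.5% of promoter peaks. This was not particular to later introns, since the shares were 76.1% and 70.3% in first introns and 74.0% and 77.9% between genes.

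The strongest members, ranked by mean signal over both libraries, lay in genes of many functions. This ranking favours sites that are strong in both libraries. Sites with 13.8 and 13.6 in replicate 1 but 6.79 and 4.68 in replicate 2 ranked below the strongest 12. The Phf19 site printed above had a signal of 15.5 in replicate 1 and 16.6 in replicate 2 (mean 16.1 ± 0.778, SD, n = 2), with 7 and 11 footprints. The Prdm2 site had 13.1 and 15.1, and the site in intron 7 of Prrg2, a membrane protein gene, had 11.95 and 15.8. The second intron of Kcnh2, a potassium channel gene, held a site of 12.6 and 12.5.

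Signals of 10.4 to 13.9 were also found in Ywhaz, which encodes an adaptor that binds phosphorylated proteins, and in Pik3ip1, an inhibitor of PI3-kinase. Itpkb, the inositol trisphosphate kinase that thymocytes need for their development, held a site of 12.5 and 11.7 in its second intron, 11.2 kb from the closest start site. The sites in Ppp1r10 (11.2 and 12.8), in the Polycomb gene Cbx7 (12.7 and 11.2), in Myo18a (13.2 and 10.5), in Gm20431 (12.02 and 11.5) and in Uggt2 (8.70 and 13.9) completed the strongest 12. These 12 lay closer to start sites than most members, at a median of 3.84 kb from the closest one, against 15.6 kb over all member pairs. All of the 12 but the Uggt2 site lay in a gene whose own promoter was open in both libraries, as did 76.3% of all member pairs. Of the 12, 9 held a GGGCGG match in their central 200 bp, against 11.6% of all member pairs.

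Later intron peaks lay deep inside genes. The median member sat in intron 5 of a transcript with 13 introns, 42752.5 bp and 42989 bp from the start of its host transcript in replicates 1 and 2. The closest start site of any gene was nearer, at a median of 15290 bp and 15421 bp, and for 57.0% of members in both libraries it was not one of the host gene's own. Intron 2 held 22.2% and 22.3% of members, and the last intron 10.6% and 10.5%. The distance rule let in members from 1001 bp and 1002 bp on and kept out peaks up to 998 bp and 992 bp. The 28 and 38 members at up to 1100 bp had a median signal of 1.86 and 1.59, and the 41 and 44 excluded peaks from 900 bp on had 1.539 and 1.497.

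Per length of sequence, later introns held fewer peaks than first introns, with the widest gap close to start sites. Later introns held 9.81 and 9.74 members per Mb of eligible sequence, first introns 13.9 and 13.8, and sequence between genes 7.001 and 6.999. The ratio of later to first introns was 0.705 and 0.704. Between 1 and 2.5 kb from the closest start site the densities in replicate 1 were 19.3 per Mb in later and 34.0 in first introns. At 5 to 10 kb they were 12.5 and 12.7, at 10 to 20 kb 11.8 and 11.9, and at 20 to 50 kb 9.71 and 8.17. The order turned back at 50 to 100 kb, with 5.87 in later and 6.37 in first introns, and beyond 100 kb, with 2.47 and 2.96.

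Far from start sites both kinds of intron stayed denser in peaks than sequence between genes. Beyond 100 kb later introns still held 2.47 members per Mb in replicate 1, against 0.626 per Mb between genes. Within introns, members were densest next to exons: 17.1 and 16.5 per Mb at up to 200 bp from an exon of the host transcript, and 4.48 and 4.47 beyond 20 kb. Introns under 2 kb held 15.7 and 15.4 members per Mb and introns over 50 kb held 4.93 and 4.92. Density varied less with intron number, from 10.7 and 10.6 per Mb in intron 2 to 7.60 and 7.66 beyond intron 20.

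**Figure D1:**
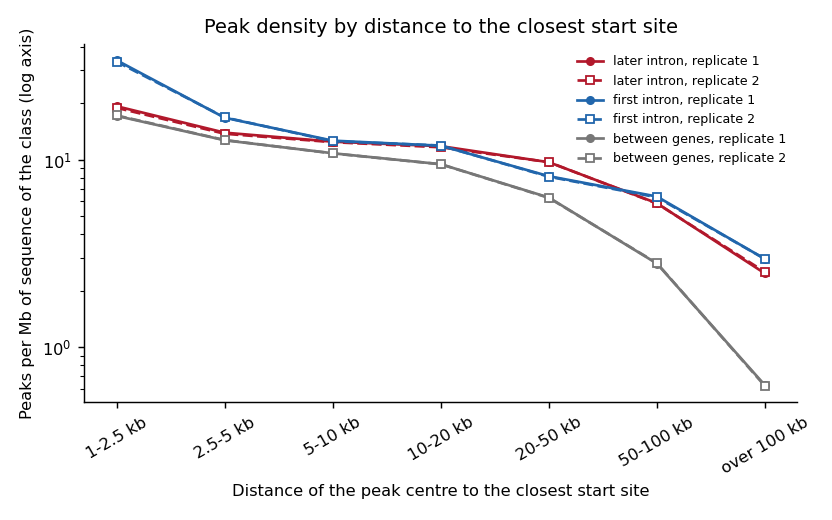
Peaks found in both libraries per Mb of sequence of their class (log axis) by distance of the peak centre to the closest start site, for later introns, first introns and sequence between genes in each library. First introns stood above later introns at 1 to 2.5 kb (34.0 against 19.3 per Mb in replicate 1), the lines of both introns met at 5 to 10 kb, and sequence between genes fell below both, to 0.626 per Mb beyond 100 kb.

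Most introns with a member held just 1, 3840 of 4600 in replicate 1 and 3813 of 4567 in replicate 2. The median distance to the next member was 18448.5 bp and 18967.5 bp, and 32.4% and 32.2% of members had the next one within 5 kb. One intron held up to 10 members in each library. A footprint, a short stretch protected from DNase I inside the open site, overlapped 95.9% and 97.1% of members. Peaks between genes had nearly the same share, 95.4% and 97.1%, and first intron peaks had 92.7% and 95.4%. The share rose with signal, from 89.5% in the lowest of 4 equal signal classes of members in replicate 1 to 99.8% in the highest.

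The host genes were a minority of all genes and more often had an open promoter. A member lay in 3261 and 3241 of 16802 protein-coding genes with later intron sequence, and 3217 genes (19.1%) had one in both libraries. Most hosts, 63.0% and 63.1%, had 1 member, and 21 and 22 genes had 10 or more. An open promoter, that is a peak within 1 kb of a start site of the gene in both libraries, was found in 73.0% and 72.9% of hosts, against 58.0% of the genes without a member in each library. Genes with an open promoter held 12.8 members per Mb of later intron in both libraries and the other genes 5.71 and 5.68. The difference held in every length class, and among genes with over 100 kb of later intron it was 8.89 against 2.71 per Mb in replicate 1.

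Tbc1d22a, a gene of the TBC domain family of Rab regulators, had the most members, 18 in replicate 1 and 19 in replicate 2, spread over 8 and 9 introns. Pakap, an A-kinase anchor protein gene, had 17 in each library and Rapgef4, an exchange factor for Rap, 15 in each. Neither had an open promoter, nor had Sfi1, a centrosome gene with 14 members in each library. Ldlrad3 and Ppp1r16b, a regulatory subunit of protein phosphatase 1, had 14 in each library, Arid1b, a subunit of the BAF remodelling complex, had 14 and 13, and Clec16a, Mad1l1 and Msi2 had 13 in each.

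Per length the order was different. Among the 1001 genes with at least 20 kb of later intron and 2 members in each library, Sfi1 ranked highest with 29.3 members per 100 kb. Repeats made up 35.4% and 36.6% of the bases of its 14 peaks, against 10.9% and 10.5% over all members, and 5 of the 14 were mostly repeat in each library. The part of repeats in its rank was not tested. Kcnh2 followed with 28.5 per 100 kb, Hvcn1, a proton channel gene, with 23.7, Abcb9 with 22.0 and Unc13a with 19.8. Stat3, a transcription factor of cytokine signalling, had 4 members in each library and 19.7 per 100 kb. Bcl2l11, which encodes the death factor Bim, had 5 members in its last intron in each library and 18.4 per 100 kb. Sept9 (18.2), Ppcdc (18.1) and Arhgef10 (16.7) completed the 10 densest.

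Genes of T cells carried many later intron peaks. Of 54 such genes with later intron sequence, 32 (59.3%) had a member in both libraries, against 19.1% of all genes. These T cell genes had longer later introns, with a median of 27.1 kb of eligible sequence against 11.9 kb. Their 86 and 87 members came to 29.1 and 29.4 per Mb of later intron, against 9.87 and 9.80 over all genes. The list holds 26 transcription factors, of which 17 had a member in both libraries, and 28 genes of the receptor and its signalling, of which 15 did. All 54 had been chosen for their role in T cells, and 51 had an open promoter, all but Cd4, Cd2 and Ptprc. Of all genes with later intron sequence 60.9% had one. Among all open-promoter genes with 20 to 50 kb of later intron, 29.1% had a member in each library.

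Runx1, the RUNX factor of early T cell development, had the most, 10 members in replicate 1 and 11 in replicate 2. Its strongest member, 1.48 kb from a start site, had a signal of 8.72 and 6.18. The member printed above, 24.3 kb from the closest start site, had 6.004 and 6.954, and another, 44.2 kb away, had 4.34 and 5.39. All 3 lie in its second intron.

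Ets1, the leading ETS factor of T cells, had 4 members, all in intron 6, with signals of 6.04 and 7.86, 4.31 and 6.18, 3.07 and 3.85, and 1.76 and 2.51. Each was higher in replicate 2. Bcl11b, the factor that fixes T cell identity, had 6 members in its last intron, the strongest at 7.25 and 6.45 and 75.2 kb from any start site. Lef1 and Ikzf1, which encodes Ikaros, had 7 members each in both libraries. The strongest in Lef1, printed above, had 5.01 and 4.73, and the strongest in Ikzf1 had 2.97 and 3.67.

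Among the receptor genes Cd8b1 was the richest, with 7 and 8 members in 10.1 kb of later intron. They were of low to middle signal, the strongest at 3.13 and 3.48 and the one printed above at 1.35 and 2.10. Ptprc had 3, all in intron 2, with the printed site at 6.12 and 8.24. Lck had 2 with the stronger at 6.31 and 4.67, and Lcp2, an adaptor of the receptor pathway, had 3 with the strongest at 4.51 and 5.75. Cd4 had 1, at 3.79 and 3.59, although its promoter lacked a peak in replicate 1.

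The other 22 T cell genes held no member in either library, and the following are named with their values known. Gata3, Satb1, Tox, Tcf3 and Myb among the transcription factors, and Cd3e, Cd3g, Cd8a, Cd28, Zap70, Lat and Il7r among the receptor and signalling genes each had an open promoter but no member. The length of their later introns ran from 2.11 kb in Cd8a to 152 kb in Tox.

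**Figure D2:**
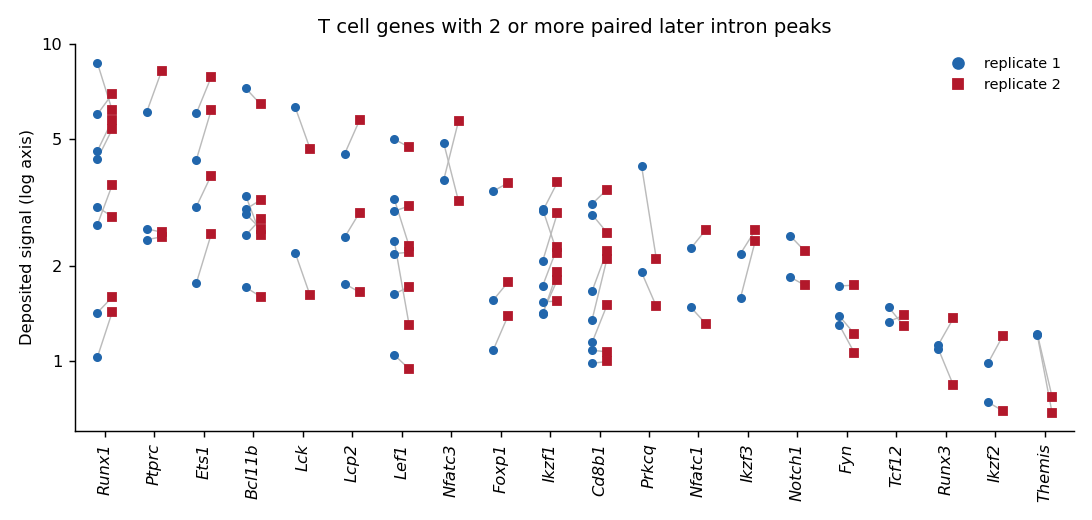
Deposited signal (log axis) of the later intron peaks paired 1 to 1 between the libraries in T cell genes with at least 2 such pairs, circles for replicate 1 and squares for replicate 2, with a line joining the same site. Runx1, Ptprc, Ets1 and Bcl11b held sites above 6 in both libraries, Ikzf1, Lef1 and Cd8b1 held series of sites, and both sites of Themis lay below 1.3.

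Lists of other cell types had a lower share of hosts than the T cell genes, though several exceeded the 19.1% of all genes. A member in both libraries was found in 7 of 16 B cell genes, 3 of 12 myeloid and dendritic genes, 4 of 14 fibroblast genes, 4 of 12 adipocyte genes, 3 of 12 endothelial genes, 1 of 10 erythroid genes and 1 of 14 hepatocyte genes. The B cell genes were led by Bach2, a repressor also used by T cells, with 3 members, and the fibroblast genes by Fbln1 with 4. Among 15 thymic epithelial genes only Foxn1, the master factor of these cells, had members, 2 in each library, although it had no open promoter. Skeletal muscle genes had 6 of 14, led by Ryr1 with 3. Per Mb of later intron, the fibroblast and muscle genes held 16.2 members in both libraries and the adipocyte genes 15.7 and 18.3, above the 9.87 and 9.80 of all genes. The B cell genes held 11.9, the endothelial genes 11.1, the myeloid and dendritic genes 8.60, the thymic epithelial genes 7.18, the erythroid genes 5.17 and the hepatocyte genes 3.45, each the same in both libraries.

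Neuronal genes had 5 of 16, but per length they were the poorest, with 1.17 members per Mb in both libraries over 12000 kb of later intron. Rbfox3, Nrxn3 and Dlg2 had 4 members each. Chromatin regulators had 12 of 20, led by Arid1b (14 and 13) and Dnmt3a (6 and 5), at 24.5 and 23.2 per Mb. Cell cycle genes had 6 of 17 with E2f2 in the lead (4 and 5), and came to 25.8 and 28.2 per Mb. Housekeeping genes had the highest density of all lists, 42.6 per Mb, from 3 members, in Gapdh, Ywhaz and Tubb5, in 70.5 kb of sequence. No list was tested.

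**Figure D3:**
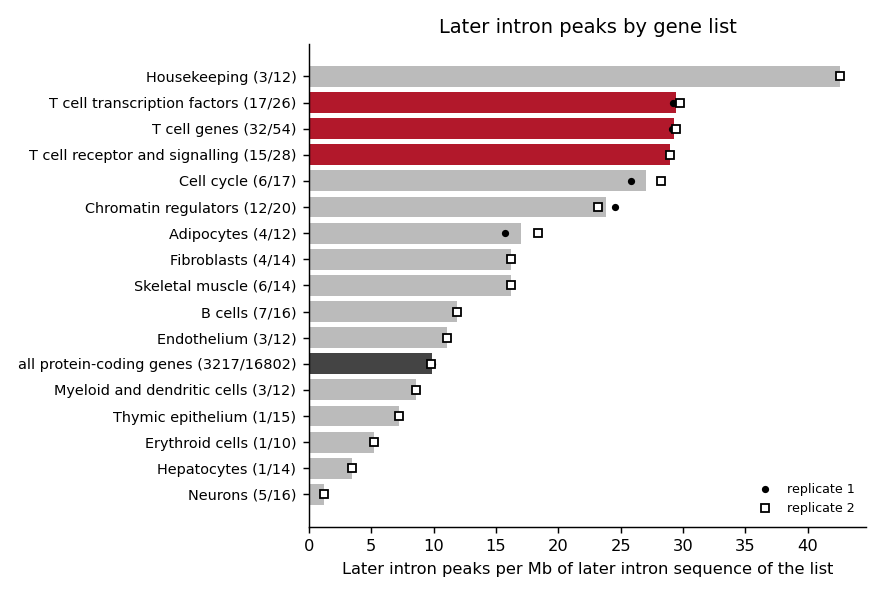
Later intron peaks per Mb of later intron sequence for each gene list (bars, mean of both libraries; circles, replicate 1; squares, replicate 2), with the number of genes with a member in both libraries over those with later intron sequence in brackets. The T cell lists stood at 28.9 to 29.7 per Mb against 9.87 and 9.80 over all genes, the neuronal list at 1.17, and the housekeeping bar rests on 3 members.

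Of the 22 motifs searched, CTCF had the widest gap between later intron peaks and other intronic sequence. The motif was present in the central 200 bp of 14.8% of members in replicate 1 and 14.6% in replicate 2 (mean 14.7% ± 0.123, SD, n = 2). It was present in 0.0602% of 2803761 tiles, the 200 bp windows of eligible later intron sequence outside all peaks, and in 0.108% of tiles weighted to the GC content of the members. First intron peaks held it in 6.44% (mean of both libraries), promoter peaks in 1.82% and peaks between genes in 14.8%. In this respect later intron peaks stood with peaks between genes rather than with first intron peaks.

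The gap to first introns stood in each class of distance to the closest start site. At 1 to 5 kb 11.97% of members and 5.68% of first intron peaks held the motif in replicate 1. At 5 to 10 kb the shares were 15.1% and 5.43%, at 10 to 20 kb 15.97% and 9.22%, at 20 to 50 kb 16.6% and 6.74%, and beyond 50 kb 11.8% and 6.67%, the last over only 135 first intron peaks. Replicate 2 gave 11.8% and 5.88% in the nearest class and 11.8% and 6.72% in the farthest.

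The motifs of T cell factors were also frequent, at levels shared with first introns. ETS motifs were found in 24.3% and 24.4% of members, against 11.6% of tiles at the members' GC content. Reversing their letters gave 6.09% of members. RUNX motifs were found in 11.1% in both libraries, against 4.34% of such tiles, and 2.77% of members held the reversed letters. First intron peaks held ETS in 25.4% and RUNX in 11.6%. The E-box CAGCTG was found in 22.3% of members and 14.0% of the GC-weighted tiles, and CAGGTG in 31.9% and 20.0%. The CTCF motif can itself contain CAGGTG, as each CTCF match printed above does on the other strand. The CAGGTG share was not separated from CTCF sites.

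TCF7 and LEF1 motifs were found in 8.23% of members, above the 4.86% of tiles at matched GC content but close to the 8.77% of all tiles. GATA motifs (AGATAA or TGATAA) showed the reverse, 10.8% of members against 23.1% of all tiles and 10.3% at matched GC content, so that for these 2 motifs the comparison turns on base composition. PU.1 motifs (GAGGAAGT), read by a factor of myeloid cells, B cells and early thymocytes, were in 4.15% of members and 1.44% of tiles at matched GC content. GGGCGG was in 11.8% of members, 16.4% of first intron peaks and 54.4% of promoter peaks, and its reversed letters in nearly the same shares, 10.7%, 16.1% and 54.2%. The GGGCGG share was higher among the strongest members, with 36 of the strongest 100 against 11.6% of all member pairs.

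**Figure D4:**
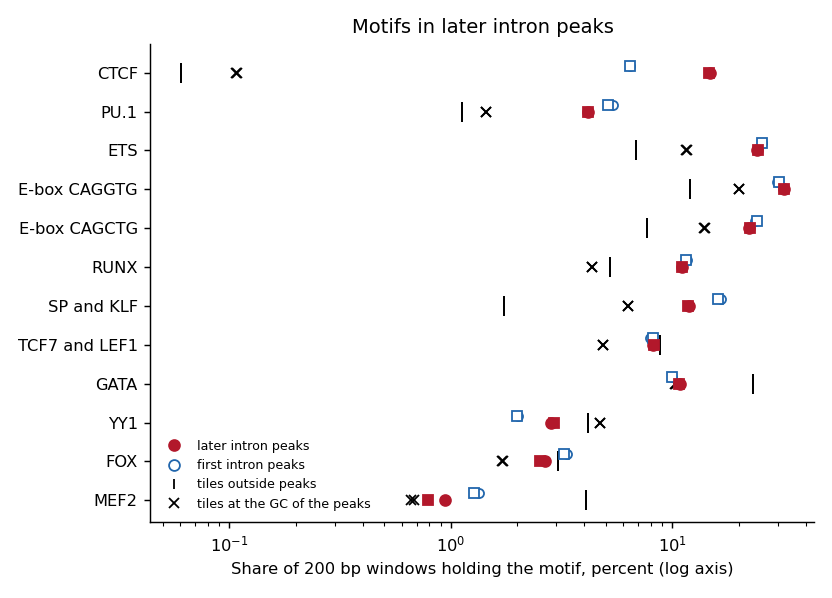
Share of 200 bp windows holding each motif (log axis) in later intron peaks and first intron peaks (circles, replicate 1; squares, replicate 2), in tiles outside peaks and in tiles weighted to the GC content of the members. CTCF has the widest gap between members (14.7%) and tiles (0.0602%) and separates members from first intron peaks (6.44%), whereas ETS, RUNX and both E-boxes lie close together in both kinds of intron.

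Footprints covered nearly every CTCF match. In replicate 1, 97.9% of 867 CTCF matches inside members lay wholly within a footprint extended by 5 bp on each side, and in replicate 2 97.2% of 847. Such extended footprints covered 34.2% and 34.1% of all bases of the members. RUNX matches were covered in 38.5% and 41.7% of cases, against 19.3% and 23.3% for the reversed letters. ETS matches were covered in 21.5% and 24.6%, close to the 20.1% and 23.4% of their reversed letters. GGGCGG matches were covered in 66.6% and 68.8%, with 59.1% and 63.9% for the reversed letters.

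CTCF matches pointed along the host gene's transcript in 383 and against it in 484 cases in replicate 1, and in 375 and 472 in replicate 2. RUNX matches pointed along it in 58.4% and 59.4%, and their reversed letters in 64.3% and 64.2%.

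The 2 libraries ranked later intron peaks broadly alike, though less closely than the other classes compared, and differed in a patterned way. Of the members, 5642 were paired 1 to 1 between the libraries, and their signals had a Spearman correlation of 0.800 across sites, which share both libraries and are not replicates. The correlation was 0.869 in first introns, 0.834 between genes, 0.973 at promoters and 0.922 over all pairs. The log2 ratio of replicate 2 over replicate 1, centred on all pairs, had an SD of 0.52. It passed 2-fold in 252 member pairs (4.47%), while the same held for 2.48% of all 36500 pairs. Members were higher in replicate 1 in 242 of these (background 2.34%) and higher in replicate 2 in 10 (background 0.137%). First intron pairs passed 2-fold in 1.62%, pairs between genes in 4.78% and promoter pairs in 0.487%.

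CTCF motifs divided the ratio. The 855 pairs with a CTCF motif had a median log2 ratio of -0.60 (SD 0.35), and 94.0% of them were lower in replicate 2 than in replicate 1 after centring. The 4787 pairs without one had a median of 0.06 (SD 0.50), with 46.0% lower in replicate 2. In deposited signal, pairs with the motif had a median of 1.96 in replicate 1, above the 1.61 of those without, and of 1.12 in replicate 2, below the 1.35 of those without, so the order of the 2 kinds turned around between the libraries. Of the 242 members over 2-fold higher in replicate 1, 95 (39.3%) held the motif, and of the 10 higher in replicate 2 none did.

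Several other motifs had a median above 0, among them ETS, RUNX and CAGCTG. The median log2 ratio was 0.19 over 1384 pairs with an ETS motif, against -0.21 without, 0.20 over 625 pairs with a RUNX motif, against -0.12, and 0.18 over 1254 pairs with CAGCTG, against -0.17. PU.1 had the highest median, 0.27 over 237 pairs, and NF-kB (0.20 over 60 pairs) and FOX (0.15 over 153 pairs) were also above 0. Below 0, after CTCF, came NFAT (-0.33 over 168 pairs), MEF2 (-0.31 over 52 pairs), HNF4 (-0.25 over 6 pairs), YY1 (-0.24 over 159 pairs) and the motif shared by Ikaros and RBPJ (-0.20 over 967 pairs). The ratio also moved with base composition. Among member pairs without a CTCF motif its median was -0.48 under 45% GC, 0.12 at 55 to 60% and 0.07 at 60% and more. Motifs other than CTCF were not compared within GC classes, and the sets without ETS, RUNX or CAGCTG include pairs with a CTCF motif. Pairs with none of the CTCF, ETS and RUNX motifs had a median of -0.10 and the broadest spread of the 3 sets in the plot of ratios by motif, with an SD of 0.51.

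The CTCF pattern was not particular to later introns. Pairs with the motif had a median log2 ratio of -0.57 in first introns (n = 176), -0.61 between genes (n = 1247) and -0.43 at promoters (n = 332). It stood in each class of GC content among the members, from -0.80 with and -0.48 without the motif under 45% GC to -0.46 and 0.07 at 60% and more. It also stood at each distance, with -0.42 and 0.09 at 1 to 2.5 kb and -0.65 and 0.09 beyond 50 kb. With 1 library on each side of the ratio, the pattern has no replicate check.

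**Figure D5:**
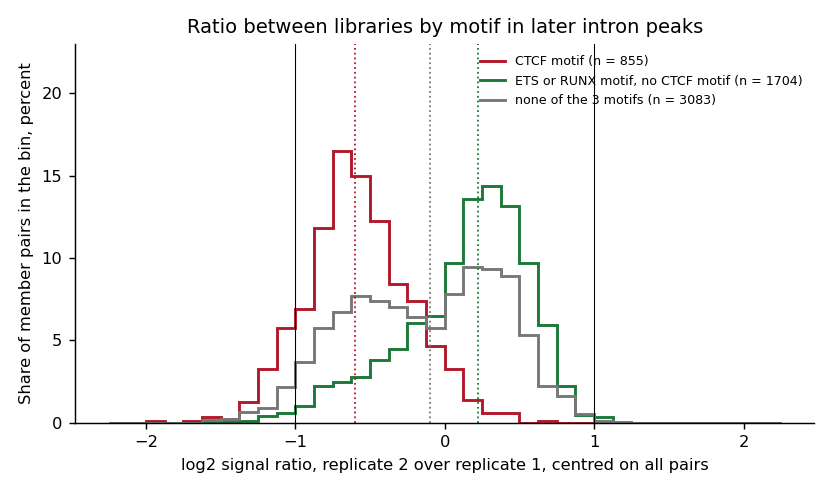
Share of member pairs in each bin of the centred log2 signal ratio of replicate 2 over replicate 1, for pairs with a CTCF motif, with an ETS or RUNX motif but no CTCF motif, and with none of these. Dotted lines mark the medians (-0.60, 0.22 and -0.10) and solid lines 2-fold. The CTCF pairs sit to the left, the ETS or RUNX pairs to the right, and the remaining pairs spread over both.

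In T cell genes CTCF motifs were rare, in 3.61% of 83 pairs, most of all in those of transcription factors. Of the 53 pairs in T cell transcription factor genes none held a CTCF motif, against 15.2% of all member pairs. After centring, 45 of the 53 were higher in replicate 2, against 2634 of all 5642 member pairs. Their median log2 ratio was 0.27, against -0.07 over all member pairs. The 53 pairs lie in 17 genes and are not replicates. Their share with an ETS or RUNX motif, 34.0%, was close to the 32.7% of all member pairs. This was not particular to T cell genes, since 1 of the 30 pairs of chromatin regulator genes held a CTCF motif (3.33%, median 0.14). Other lists combined CTCF motifs with a positive median, as the 10 pairs of cell cycle genes did (20% with the motif, median 0.23) and the 8 of endothelial genes (12.5%, 0.30). Among the 30 pairs of receptor and signalling genes, 3 held the motif, those in Prkcq, Cd247 and Themis printed above. The Prkcq site had a signal of 4.13 in replicate 1 and 2.09 in replicate 2 (centred log2 ratio -0.80), the Themis site 1.21 and 0.685 (-0.64) and the Cd247 site 1.45 and 1.20 (-0.10). The first is the lowest ratio of all 83 T cell gene pairs, of which none passed 2-fold.

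Pairs in genes without an open promoter held CTCF motifs more often, in 19.5% against 13.8% of those in genes with one, and had a median log2 ratio of -0.29, against 0.00 with an open promoter. The same division by promoter was seen in the deposited medians, 1.56 in replicate 1 and 1.12 in replicate 2 without an open promoter, and 1.69 and 1.37 with one.

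Single sites lay farther from the median. The highest ratio belonged to another site of Itpkb, 16.7 kb from the closest start site, at 1.70 in replicate 1 and 3.46 in replicate 2, a centred log2 ratio of 1.20. Sites in Ccdc162 (1.17 and 2.26), in Sorl1, a sorting receptor gene (0.922 and 1.77), in 2900011O08Rik (0.474 and 0.894) and in Rasgef1b (0.582 and 1.08) came next. In all 5 the peak of replicate 2 was also the wider.

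The lowest ratio was in intron 3 of Tmprss2, a serine protease gene, at 3.36 in replicate 1 and 0.776 in replicate 2, a centred log2 ratio of -1.94. Sema5b (1.69 and 0.463), Dennd3 (2.29 and 0.685) and Tdrd3 (2.07 and 0.620) followed. The fifth, in Gm10722, had 10.7 and 3.22 and consisted of repeat over its whole length.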

How the data were processed

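DNase-seq peaks, footprints and cut enrichment were deposited for 2 libraries of mouse thymus, each made from its own alignment to mm10 without pooling. The names of the aligner and callers and the read depth were not given in the sources used here. Deposited signal is 1 value per peak on an unstated scale, so its precision is known only from the spread between the libraries. The authors' false discovery rate (q-value) file lists runs of bases under a threshold, and the lowest q-value overlapping each member had a median of 4.7e-10 and 2.2e-08. Footprints were used by position only, as deposited.

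The shorter of the 2 peak lists of each library was the main list. Introns, exons and start sites came from the GENCODE M21 basic annotation, with the longest protein-coding transcript taken by summed exon length. Densities are per Mb of sequence in which a peak centre could have met the same rule. Motifs were searched on both strands in 200 bp on the peak centre (sites in footprints: in the whole peak, with footprints extended by 5 bp). Tiles are windows of the same length outside the longer peak lists, weighted in GC bins of 2 percentage points. Signal ratios use peaks that overlap 1 to 1 and are on the log2 scale, computed from the deposited signal.

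Named genes are the 12 strongest pairs, the 10 genes with most members, the 10 densest (at least 20 kb and 2 members), the first 3 of each gene list, the T cell genes with a member, and the 5 most different pairs in each direction. Some genes that this rule names are not reported here. The members and all lists were chosen with earlier results of these data known. With 1 group of 2 libraries no test was run; values are given per library or as mean ± SD. Alternatives covered the peak list, overlap, placement, windows, annotation and leaving out either library. Python 3.11.15, numpy 2.4.6, pandas 2.3.3, numba 0.67.0 and matplotlib 3.10.9 were used, and the placement, overlap, motif and ratio functions were tested on simulated data.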

Additional observations from a re-analysis of the deposited data

How the results depend on the processing

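The reference values, as means of both libraries, were 5834 members, a median signal of 1.48, a footprint in 96.5%, a density ratio of later to first introns of 0.704, an open promoter in 73.0% of hosts, 32 T cell genes, ETS in 24.3%, RUNX in 11.1% and CTCF in 14.7% of members, and 252 pairs past 2-fold. With the longer peak lists they were 9906 members, 1.03, 91.5%, 0.674, 77.4%, ETS 22.6%, RUNX 10.8%, CTCF 12.3% and 482 pairs. With the stronger 50% of each list they were 2098 members, 2.67, 99.3%, 0.593, 70.0%, ETS 26.8%, RUNX 11.9%, CTCF 13.1% and 33 pairs. The share of pairs past 2-fold was 5.10% with the longer lists and 1.62% with the stronger peaks. A reciprocal overlap of 50% gave a footprint in 97.7%, a density ratio of 0.714, open promoters in 73.7%, RUNX in 11.2% and CTCF in 15.4%. Requiring the whole peak inside the intron gave 0.637, 73.5%, ETS 24.5%, RUNX 11.3% and CTCF 14.2%. A distance of 2500 bp to start sites gave 0.849, 72.7%, RUNX 11.2% and CTCF 15.1%. Transcripts longest by span gave 0.714, 73.3% and RUNX 11.4%, and barring first introns of any transcript gave 0.752, ETS 23.8%, RUNX 11.1% and CTCF 15.2%. Windows of 400 bp gave ETS 33.5%, RUNX 16.5% and CTCF 14.9%. Motifs inside footprints were found in 6.38% for ETS, 4.52% for RUNX and 14.3% for CTCF. A footprint wholly inside the peak was found in 95.5%, and open promoters within 500 bp in 71.3%. A pair of alternatives was chosen after seeing the data: the comprehensive annotation gave 0.728, 72.5%, ETS 24.9%, RUNX 11.5% and CTCF 15.01%, and leaving out Sfi1 and Gm10722 gave 0.703 and RUNX 11.1%.

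The remaining 71 of 125 recomputed values moved by less than the spread between the libraries or, for counts, by less than 1.5 times. The difference by CTCF motif was instead held to a fixed limit. Each of 2 libraries lies closer to their mean than their SD. Except for counts, leaving out a library could therefore not exceed the spread, and it is no check of stability. Leaving out either library gave 5814 to 5854 members, a signal of 1.31 to 1.65, a footprint in 95.9% to 97.1%, a density ratio of 0.704 to 0.705, open promoters in 72.9% to 73.0%, 32 T cell genes, ETS in 24.3% to 24.4%, RUNX in 11.1% and CTCF in 14.6% to 14.8%. The median log2 ratio of pairs with a CTCF motif less that of pairs without was -0.66, and it stayed between -0.68 and -0.64 under the alternatives on the choice of members, which for this value were added after seeing the data. No paired analysis was possible because there was 1 group. The read depth is unknown, so no interval from counting could be given.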
